A study of Mus musculus with 6 samples.

Results

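Transfer RNAs that carry leucine, serine and selenocysteine were followed in small RNA libraries of exosomes, the small vesicles that cells shed into their medium. The members were every row of the deposited tables whose name begins with tRNA-Leu, tRNA-Ser or tRNA-SeC. The rule uses row names alone and no measured value, though the class was picked with earlier results of these data known. These were 56 of 471 tRNA rows and of 16310 rows in all, with 30 rows for leucine, 25 for serine and 1 for selenocysteine. They bear 11 of the 57 anticodons in the files, 5 for leucine, 5 for serine and 1 for selenocysteine.

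The study compared exosomes of epidermal stem cells (ESC) with exosomes of dermal fibroblasts (Fb), each in 3 libraries. ESC were rapidly adhering epidermal cells from dorsal skin of C57BL/6 mice aged 3 weeks, kept in serum-free keratinocyte medium on collagen IV. Fb came from dorsal dermis of db/db mice aged 14 weeks, a diabetic strain, and were grown in DMEM with FBS and moved to serum-free medium for the collection. The strain label itself reads C57BL/6 for every library. Cell type, strain, age and medium changed together between the groups and cannot be told apart. The labels speak of biological replicates but tie no library to an animal, so the p-values below reflect library-to-library spread alone, which may be technical. A lower share of a tRNA from fewer vesicles that carry it and from less of it per vesicle cannot be told apart in such bulk RNA.

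Most tRNAs have a short variable loop between the anticodon arm and the T arm. Cytosolic serine, leucine and selenocysteine tRNAs instead carry a long variable arm, which seryl-tRNA synthetase uses to recognise its serine and selenocysteine tRNAs. Selenocysteine tRNA is first charged with serine, which is then converted on the tRNA, and it reads UGA codons that are set aside for selenoproteins. Small RNA libraries catch mostly fragments of tRNAs, cut in the anticodon loop or elsewhere, and the deposited tables do not say which end of a tRNA a read came from. In row names such as tRNA-Ser-TGA-2-1, the anticodon is followed by the number of the isodecoder (a tRNA with the same anticodon and a distinct body sequence) and by the number of the gene copy. Copies of an isodecoder have the same mature sequence.

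Gene models give total lengths, introns included, and so do not single out the variable arm. In RefSeq (GRCm38.p6) the 25 leucine tRNA genes are 82 to 107 bases long, and the longest, 105 to 107 bases, are the 4 genes with anticodon CAA, which hold an intron. The serine genes number 22 and are 82 bases long, except the GGA gene with 73. The other 356 tRNA genes have a median of 72 bases and range from 70 to 96, with 18 of at least 80. No length of the selenocysteine gene was read out. Of the 47 leucine and serine genes, 19 lie within 2.35 Mb of chromosome 13, at chr13:21170036-23521951. Single rows of the tables could not be paired with single RefSeq genes by name.

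The libraries held 9894485 to 11149046 assigned reads in ESC and 6914504 to 8691350 in Fb. Reads of tRNA rows made up 79.3% ± 0.590 of them in ESC and 84.9% ± 4.54 in Fb (SD, n = 3 each). Glycine and glutamate tRNAs took 99.3% ± 0.179 of tRNA reads in ESC but 81.9% ± 0.681 in Fb. All tRNAs other than these shared 0.704% ± 0.179 in ESC and 18.1% ± 0.681 in Fb. The remainder that holds the members thus differed widely between the groups, and each result below is read against the denominator named with it. The 6 keratinocyte marker miRNAs summed to 8425 to 9732 reads per 1000000 assigned reads (RPM) in ESC and to 40.5 to 288 in Fb. The 5 fibroblast markers summed to 18.1 to 27.7 in ESC and to 1109 to 2189 in Fb. The 6 blood or serum markers summed to 1.25 to 45.6 in ESC and to 8.75 to 197 in Fb. Among them miR-223-3p was at 0 in ESC and miR-150-5p at 0 in Fb, and their part in the tRNA results was not tested.

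Leucine and serine tRNA reads were higher in Fb exosomes, relative to tRNA reads and relative to all reads, but all 3 amino acids were lower in Fb relative to tRNA reads other than glycine and glutamate. Selenocysteine tRNA did not pass the test on the first 2 scales. When tRNA reads were scaled by TMM or DESeq2 factors, which center the fit on typical tRNAs, leucine stood at 0.35 and 0.53 and serine at -0.39 and -0.15 (log2 fold change, Fb minus ESC), and none of these passed. Selenocysteine stood at -2.37 and -2.28 there and was called higher in ESC (adjusted p = 0.00212 with edgeR and TMM, 8.72e-13 with DESeq2). The rows together held 921.2, 1368 and 805.6 estimated reads in the ESC libraries and 6465, 7763 and 6065 in the Fb libraries. In reads per 1000000 tRNA reads (tRNA RPM) this was 117, 154 and 98.7 in ESC and 903, 1109 and 1038 in Fb. Every Fb library was above every ESC library, and the Fb mean of 1017 ± 105 was 8.25 times the ESC mean of 123 ± 28.0 (SD, n = 3 each). For the ESC library of replicate 3, the shallowest in these reads, the exact 95% interval of counting was 92.0 to 106.

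Leucine tRNA stood at 78.0, 105 and 58.0 tRNA RPM in ESC and at 707, 902 and 807 in Fb. The groups were far apart, with means of 80.3 ± 23.6 and 805 ± 97.2 (SD, n = 3 each). In the quasi-likelihood test of edgeR, adjusted by Benjamini-Hochberg, the log2 fold change (Fb minus ESC) was 3.33 (SE 0.43, adjusted p = 4.75e-04). The SE of edgeR values, here and below, was worked back from the test, as the absolute log2 fold change over the square root of the F statistic. It is a rough guide where a group is near 0 reads. Relative to all assigned reads the leucine log2 fold change was 3.42 (SE 0.59, adjusted p = 0.00146, edgeR).

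Serine tRNA stood at 30.6, 34.1 and 29.6 tRNA RPM in ESC and at 186, 186 and 206 in Fb. Its spread within a group was small, and the groups did not overlap, with means of 31.4 ± 2.40 and 193 ± 12 (SD, n = 3 each). The log2 fold change was 2.61 (SE 0.35, adjusted p = 4.75e-04, edgeR). Relative to all reads it was 2.71 (SE 0.69, adjusted p = 0.0198, edgeR), a call that was lost without any 1 of the ESC libraries (adjusted p = 0.182, 0.145 and 0.157 for replicates 1, 2 and 3) or without Fb replicate 3 (adjusted p = 0.110). The change in share was as large in these subsets, from 2.66 to 2.78 on the log2 scale.

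Selenocysteine tRNA, with a single row, held 68, 129 and 91 reads in ESC and 70, 150 and 146 in Fb. It stood at 8.66, 14.5 and 11.1 tRNA RPM in ESC and at 9.77, 21.4 and 24.99 in Fb. Fb replicate 1 lay among the ESC libraries and the other Fb libraries above them all. The log2 fold change was 0.71 (SE 0.44, adjusted p = 0.155, edgeR), and it passed without Fb replicate 1 (1.02, adjusted p = 0.00998), while it turned to a call on the ESC side with the TMM and DESeq2 factors given above. Against all reads it was 0.79 (SE 0.86, adjusted p = 0.730, edgeR).

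Of the 22 amino acid sums tested against tRNA reads, 77.3% were called higher in Fb and 4.55% higher in ESC. Leucine ranked 11, serine 13 and selenocysteine 18 from the most Fb-sided, and the median log2 fold change of all 22 was 3.11. Leucine and serine calls thus fell in the middle of a rise that most tRNA amino acids shared. Against all reads, 59.1% of the tRNA sums were called higher in Fb, where 2.97% of all 2864 rows tested were. The exact two-sided permutation test of the shares gave p = 0.1 for leucine and for serine, the smallest value that 3 against 3 libraries allow (0.133 adjusted over 24 amino acid groups), and p = 0.3 for selenocysteine.

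**Figure D1:**
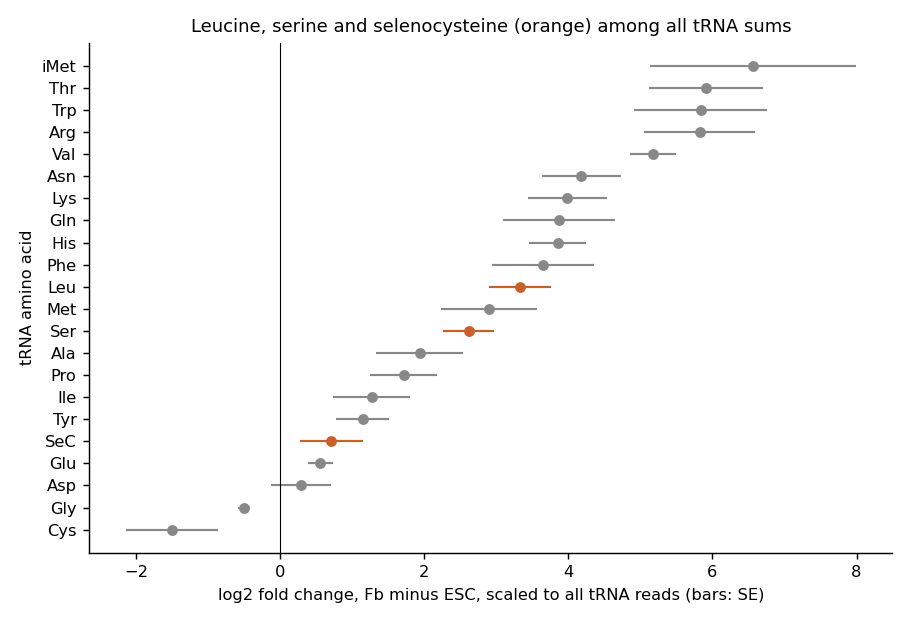
Log2 fold change of each tRNA amino acid sum (x axis, Fb minus ESC, scaled to all tRNA reads) with its SE as a bar, 22 sums ordered from high to low on the y axis. Leucine at 3.33 and serine at 2.61 lie near the middle and selenocysteine at 0.71 near the bottom of the order. Without glycine and glutamate reads in the library size all 3 are below 0.

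The direction depended on the denominator. Among tRNA reads other than glycine and glutamate, the members took 1.76% ± 0.111 in ESC and 0.563% ± 0.0781 in Fb (SD, n = 3 each), a ratio of Fb to ESC of 0.320. Leucine, serine and selenocysteine were each lower in every Fb library than in every ESC library on this scale. So were alanine, asparagine, aspartate, cysteine, histidine, isoleucine, elongator methionine, proline and tyrosine. Valine was higher in every Fb library, and the other amino acids of this remainder overlapped. Leucine stood at 12548, 11546 and 9980 reads per 1000000 of this remainder in ESC and at 3785, 5195 and 4418 in Fb. Serine stood at 4921, 3755 and 5095 in ESC and at 993, 1071 and 1131 in Fb. Selenocysteine showed the widest gap of the 3, with 1392, 1593 and 1919 in ESC against 52.3, 123 and 137 in Fb. The edgeR log2 fold changes on this scale were -1.35 for leucine (adjusted p = 0.00662), -2.11 for serine (adjusted p = 0.00178) and -3.97 for selenocysteine (adjusted p = 7.85e-04), and the median over all 22 amino acids was -1.58. Valine tRNA alone held 55.3% ± 5.20 of this remainder in ESC and 78.0% ± 11.6 in Fb (SD, n = 3 each). Leucine and serine thus rose against the whole tRNA pool. Leucine, serine and selenocysteine all fell against a remainder that was mostly valine tRNA.

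**Figure D2:**
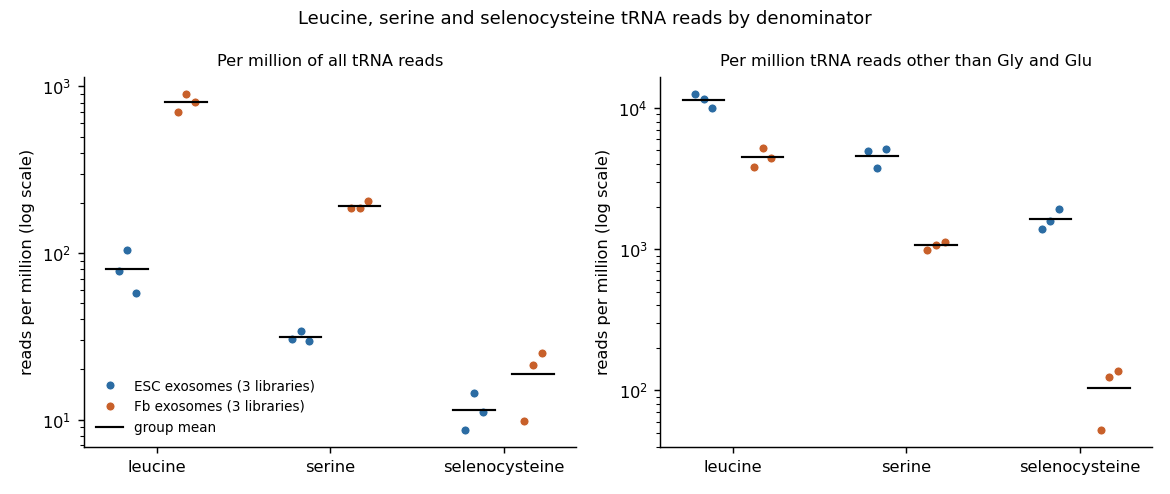
Reads per 1000000 reads (log y axis) of leucine, serine and selenocysteine tRNA in each of 3 ESC (blue) and 3 Fb (orange) libraries, with group means as lines. Against all tRNA reads (left) leucine and serine are higher in Fb, and against tRNA reads other than glycine and glutamate (right) all 3 are lower in Fb.

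The make-up of the class differed as well, a measure that no library total enters. Leucine took 66.5%, 68.3% and 58.7% of the members' reads in ESC and 78.4%, 81.3% and 77.7% in Fb. Serine took 26.1% ± 3.88 in ESC and 19.1% ± 2.02 in Fb (SD, n = 3 each). Selenocysteine took 7.38%, 9.43% and 11.3% in ESC and 1.08%, 1.93% and 2.41% in Fb. None of these 3 shares overlapped between the groups (exact two-sided permutation p = 0.1 each, the smallest possible, 0.1 after adjustment over the 3). The 3 shares add up to the whole, so they are not separate results. The nearest background is at another level, where 55.3% of 47 anticodon shares within an amino acid did not overlap.

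Among the anticodons, 8 of 11 were higher in every Fb library than in every ESC library in tRNA RPM, and 0 the reverse. Of all 55 tRNA anticodons with reads, 63.6% were on the Fb side in this way and 9.09% on the ESC side. Of the 9 member anticodons with enough reads for the edgeR test, 7 were called higher in Fb and 0 higher in ESC, against 72.3% and 8.51% of the 47 tRNA anticodons tested. The median log2 fold change was 2.43 for the 9 and 2.54 for the 47. The share of calls was thus near that of tRNA anticodons at large. Against all reads 4 of the 9 were called higher in Fb (leucine CAG and TAG, serine AGA and TGA), where 57.4% of the tRNA anticodons and 3.53% of all 2889 rows tested were. On that scale 0 members were called higher in ESC, against 6.38% of tRNA anticodons. All 9 estimates were positive on both scales, so 0 pointed to ESC at an unadjusted p either. DESeq2 with its own size factors called 2 of them higher in ESC against tRNA reads, and TMM factors 3. The median of the 47 was 0.15 and -0.47 there. The 4 Fb calls against all reads ranged from 2 to 9 when a library was left out, with 2 without ESC replicate 1, ESC replicate 3 or Fb replicate 3 and 9 without Fb replicate 1.

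Leucine TAG, the reader of CUA codons, had the largest log2 fold change of the 4 leucine anticodons tested. It stood at 0.890, 8.45 and 2.10 tRNA RPM in ESC and at 189, 414 and 373 in Fb. ESC libraries held only 7.0, 75.3 and 17.1 of its reads, against 1357.1, 2895.8 and 2177.6 in Fb. Its log2 fold change was 6.41 (SE 0.98, adjusted p = 3.38e-05, edgeR). The ratio of means was 85.3, and it was 218 without ESC replicate 2, which held most of the ESC reads. TAG also stayed on the Fb side of the other scalings of tRNA reads, at 3.35 with TMM factors (adjusted p = 0.00201, edgeR), 3.96 with DESeq2 (adjusted p = 2.13e-09) and 1.91 without glycine and glutamate reads in the library size (adjusted p = 0.0459, edgeR).

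Leucine CAG, the reader of the CUG codon, held the most leucine reads in every ESC library and was also high in Fb. It stood at 46.7, 60.0 and 29.1 tRNA RPM in ESC and at 357, 397 and 349 in Fb. The Fb libraries lay close together and well above ESC, with a log2 fold change of 3.02 (SE 0.69, adjusted p = 9.74e-04, edgeR).

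Leucine AAG, which reads CUU and CUC codons, stood at 15.1, 19.3 and 8.14 tRNA RPM in ESC and at 141, 34.0 and 54.6 in Fb. Its groups did not overlap, and Fb replicate 1 was far above the other Fb libraries. AAG had a log2 fold change of 2.43 (SE 0.67, adjusted p = 0.00352, edgeR). The ratio of means of 5.40 became 3.12 without Fb replicate 1.

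Leucine CAA, the reader of UUG codons, whose genes hold an intron, stood at 15.0, 17.2 and 18.5 tRNA RPM in ESC and at 19.0, 57.1 and 29.9 in Fb. The lowest Fb library was only just above the highest ESC library. The log2 fold change of 1.06 (SE 0.57) did not pass (adjusted p = 0.0917, edgeR), and it passed without Fb replicate 1 (1.36, adjusted p = 0.00944). Leucine TAA, the reader of UUA codons, was near absent in both groups, at no more than 3.2 reads in any library. Its 0.442 tRNA RPM in Fb replicate 1 was the highest value, where 3 reads, the limit that a count of 0 allows, correspond to 0.419. It was not tested.

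**Figure D3:**
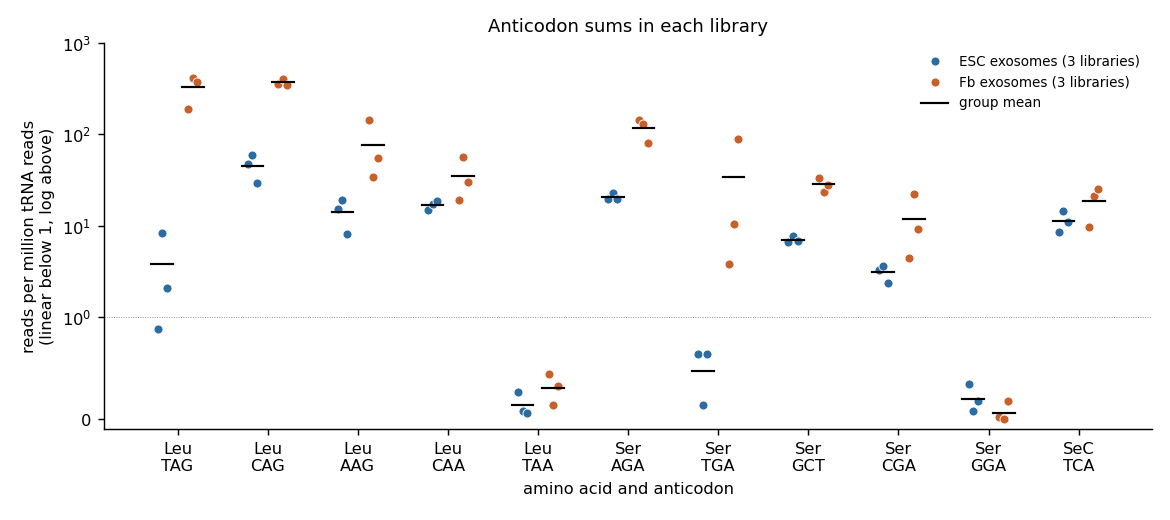
Level in tRNA RPM of the 11 anticodons (y axis linear below 1 and logarithmic above, dotted line at 1) in 3 ESC (blue) and 3 Fb (orange) libraries, with group means as lines. Leucine TAG and serine TGA show the widest gaps, and leucine TAA, serine GGA and selenocysteine TCA overlap between the groups.

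Serine AGA, the anticodon that reads UCU and UCC codons, stood at 19.7, 22.6 and 19.5 tRNA RPM in ESC and at 144, 129 and 80.0 in Fb. The ESC libraries were nearly level, and the lowest Fb library was Fb replicate 3. Its log2 fold change was 2.51 (SE 0.59, adjusted p = 0.00113, edgeR).

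Serine TGA, the reader of UCA codons, stood at 0.639, 0.138 and 0.635 tRNA RPM in ESC, from 5.0, 1.2 and 5.2 reads. In Fb it stood at 3.82, 10.5 and 88.9, with 27.4, 73.6 and 519.5 reads. Fb replicate 3, the library in which AGA was lowest among the Fb libraries, was far above either other Fb library. The log2 fold change was 6.21 (SE 1.14, adjusted p = 1.68e-04, edgeR), and the ratio of means of 73.1 became 15.2 without Fb replicate 3. In that library AGA held 38.8% and TGA 43.1% of the serine reads, against 77.5% and 2.06% in Fb replicate 1 and 69.6% and 5.66% in Fb replicate 2.

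Since AGA was lowest and TGA highest in the same Fb library, the sum of both was examined too, a choice made after seeing the data. The sum stood at 20.4, 22.7 and 20.1 tRNA RPM in ESC and at 148, 140 and 169 in Fb, and on it the Fb libraries lay close together. Its log2 fold change was 2.85 (SE 0.50, adjusted p = 4.50e-04, edgeR) against tRNA reads and 2.95 (adjusted p = 0.0143, edgeR) against all reads. How reads were divided between the rows of the 2 anticodons was not tested.

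Serine GCT, which reads AGU and AGC codons, stood at 6.62, 7.72 and 6.89 tRNA RPM in ESC and at 33.5, 23.6 and 28.1 in Fb. The groups were well apart, with a log2 fold change of 2.00 (SE 0.55, adjusted p = 0.00352, edgeR). Serine CGA, the reader of the UCG codon, stood at 3.28, 3.63 and 2.39 in ESC and at 4.45, 22.3 and 9.24 in Fb. Its log2 fold change of 1.96 (SE 0.69, adjusted p = 0.0170, edgeR) rested on few reads and was lost without ESC replicate 2 (adjusted p = 0.0737), ESC replicate 3 (0.0821) or Fb replicate 2 (0.108). Without Fb replicate 2 the ratio of CGA means went from 3.87 to 2.21. Serine GGA had no more than 2.7 reads in any library and was not tested.

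Among the tested leucine anticodons, TAG and CAA had shares of leucine reads that did not overlap between the groups. TAG held 1.14%, 8.05% and 3.62% of leucine reads in ESC and 26.8%, 45.9% and 46.2% in Fb. CAA lay the other way, at 19.2%, 16.4% and 31.9% in ESC and 2.69%, 6.34% and 3.70% in Fb. CAG held 55.8% ± 4.94 in ESC and 45.9% ± 3.95 in Fb, and AAG 17.3% ± 2.84 and 10.2% ± 8.64 (SD, n = 3 each), and these overlapped between the groups. Within serine, GCT held 21.6%, 22.6% and 23.3% in ESC and 18.1%, 12.7% and 13.6% in Fb, without overlap. AGA, TGA and CGA overlapped. Of the 8 leucine and serine anticodons with enough reads for the edgeR test, 3 had shares that did not overlap (leucine TAG, leucine CAA and serine GCT), against 59.0% of the 39 such anticodons of all amino acids with more than 1 anticodon. Leucine TAA and serine GGA, with at most 3.2 and 2.7 reads in a library, were too sparse to be read this way. Each of the 3 had an exact two-sided permutation p of 0.1, the smallest possible (0.181 adjusted over 47 anticodons, sparse ones included).

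**Figure D4:**
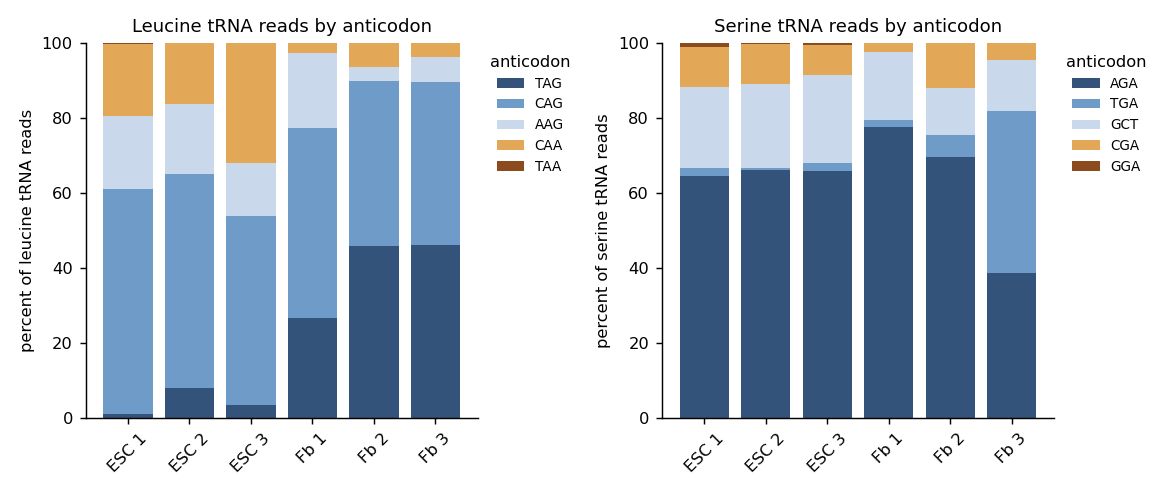
Percent of leucine (left) and serine (right) tRNA reads held by each anticodon (colours) in each library. Leucine TAG is at most 8.05% in ESC and at least 26.8% in Fb, and serine TGA is large only in Fb replicate 3, at 43.1%.

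Single rows were sparse. With at least 3 reads as the mark of detection, ESC libraries held 23, 25 and 25 of the 56 rows and Fb libraries 29, 24 and 23. Of the 56, 11 rows were detected in every library, 16 in none, 3 in every Fb and no ESC library, and 3 in every ESC and no Fb library. The same counts over all tRNA rows are not given here, so these describe the members only. Of 22 rows with enough reads for the edgeR test against tRNA reads, 9 were called higher in Fb and 3 higher in ESC, against 53.2% and 4.49% of the 156 tRNA rows tested. The 34 untested rows did not pass the count filter, and 29 of them overlapped between the groups. Some held many reads in a single library, such as CAG-1-4 with 1318.4 in Fb replicate 2. The count of 9 became 5 without ESC replicate 3. The median log2 fold change was 2.31 for the 22 rows and 3.33 for the 156. Of the 23 rows tested against all reads, 7 were called higher in Fb and 2 higher in ESC. These shares stand beside 47.8% and 3.18% of tRNA rows and 4.97% and 6.77% of all 2999 rows tested. The 7 became 4 and 3 without ESC replicates 2 and 3 and 14 and 12 without Fb replicates 1 and 2, and the 2 became 5 without Fb replicate 1 and 1 without Fb replicate 3.

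The rows called higher in Fb included TAG-1-1, TAG-2-1 and TAG-3-1, which are 3 isodecoders of leucine TAG. Near-identical tRNA genes share reads, so these rows are not separate results from the TAG sum. tRNA-Leu-TAG-1-1 held 1.2, 1.8 and 0.3 reads in ESC and 580.3, 1102.3 and 627.3 in Fb, a ratio of 959 with an exact 95% counting interval of 328 to 4660 on pooled reads scaled to tRNA reads. tRNA-Leu-TAG-2-1 held 1.2, 69.3 and 7.7 reads in ESC and 552.0, 910.6 and 873.7 in Fb. tRNA-Leu-TAG-3-1 held 1.1, 3.2 and 7.9 reads in ESC and 220.9, 880.8 and 675.0 in Fb. Each was higher in every Fb library, with edgeR log2 fold changes of 9.73, 5.32 and 7.51 (SE 1.16, 1.53 and 1.16, adjusted p = 0.00359, 0.0275 and 0.00443). TAG-2-1 lost its call without ESC replicate 3, Fb replicate 2 or Fb replicate 3 (adjusted p = 0.0934, 0.0678 and 0.0778). Without ESC replicate 2 the log2 fold change of TAG-1-1 became 10.5 and that of TAG-2-1 became 7.70, and without ESC replicate 3 that of TAG-3-1 became 8.50. The remaining TAG row, TAG-4-1, had no more than 3.9 reads in any library.

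Of the leucine AAG rows, 1 was called higher in Fb. tRNA-Leu-AAG-3-1 held 66.3, 18.8 and 20.9 reads in ESC and 985.5, 223.0 and 207.5 in Fb, with a log2 fold change of 3.96 (SE 1.00, adjusted p = 0.0180, edgeR), lost without ESC replicate 2 or 3 (adjusted p = 0.0768 and 0.0801). Without Fb replicate 1 it became 2.95, and 4.85 without ESC replicate 1. tRNA-Ser-AGA-2-1 held 59.4, 59.8 and 78.6 reads in ESC and 1011.4, 872.3 and 465.5 in Fb. It was the leading AGA row of every library, at 29.7% to 49.4% of AGA reads in ESC and 96.3% to 99.6% in Fb. For AGA-2-1 the log2 fold change was 3.85 (SE 0.52, adjusted p = 0.00390, edgeR).

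The remaining Fb calls were serine rows. tRNA-Ser-TGA-2-1 held 0.1, 0.1 and 2.6 reads in ESC and 25.2, 62.3 and 513.4 in Fb, a ratio of 250 with a counting interval of 85.0 to 1210. Fb replicate 3 again stood apart, and the edgeR log2 fold change of 7.92 (SE 2.10, adjusted p = 0.0216) lost its call without any 1 of the ESC libraries (adjusted p = 0.0785, 0.0803 and 0.0527 for replicates 1, 2 and 3). Without Fb replicate 3 it became 5.49, and 10.9 without ESC replicate 3. tRNA-Ser-GCT-3-1 held 0.5, 6.9 and 3.7 reads in ESC and 55.5, 94.6 and 79.0 in Fb (log2 fold change 4.57, SE 0.77, adjusted p = 0.00532, edgeR). The groups of GCT-3-1 were wide apart. GCT-4-1 had a log2 fold change of 2.26 (adjusted p = 0.0295, edgeR). With 1 library left out its adjusted p reached 0.128, past the threshold, and its log2 fold change fell as low as 1.73. CGA-2-1 had one of 2.36 (adjusted p = 0.0275, edgeR), lost without each library but Fb replicate 1 (adjusted p from 0.0893 to 0.125), with 1.59 on the log2 scale without Fb replicate 2. tRNA-Leu-CAA-3-1, the most abundant CAA row by its mean in both groups, held 37.9, 47.7 and 92.9 reads in ESC and 98.2, 349.6 and 146.4 in Fb and just missed the threshold (log2 fold change 2.03, SE 0.71, adjusted p = 0.0501, edgeR).

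Of the 22 rows tested against tRNA reads, 3 were called higher in ESC, or 13.6%, against 4.49% of all tRNA rows tested. tRNA-Leu-AAG-1-3 held 46.3, 135.8 and 38.3 reads in ESC and less than 1 read in every Fb library. Against the limit of 3 reads per library, this was at least 19.0-fold higher in ESC (adjusted p = 0.00815, edgeR), and it led the AAG rows of ESC replicates 2 and 3 at 78.8% and 57.7%. tRNA-Ser-AGA-2-6 held 22.7, 48.8 and 63.2 reads in ESC and 1.4, 0.3 and 0 in Fb, a ratio of 54.2 with an exact 95% counting interval of 14.7 to 452 (adjusted p = 0.00532, edgeR). tRNA-Leu-CAG-3-1 held 16.1, 24.6 and 33.5 reads in ESC and 0.4, 2.0 and 2.3 in Fb. Its log2 fold change was -3.75 (SE 0.95, adjusted p = 0.0180, edgeR), and the call was lost without any 1 of the libraries except Fb replicate 1 (adjusted p from 0.0566 to 0.0801). These 3 rows are also the 3 that were detected in every ESC and no Fb library, which rests on the same counts and is not a separate result.

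Sums over the copies of an isodecoder, examined after seeing the data, changed this picture. The AAG-1 isodecoder, to which AAG-1-3 belongs, held 52.2, 153.3 and 45.4 reads in ESC and 27.7, 15.0 and 111.4 in Fb, so its groups overlapped in reads (log2 fold change -0.23, SE 0.97, adjusted p = 0.834, edgeR). In Fb nearly all of these reads were placed in the copy AAG-1-2. The AGA-2 isodecoder was called higher in Fb (log2 fold change 2.81, SE 0.65, adjusted p = 0.00516, edgeR), though its copy AGA-2-6 was called higher in ESC. CAG-3, with a single row, was the only ESC call among 18 isodecoders tested, with 11 called higher in Fb, against 4.51% and 60.9% of the 133 tRNA isodecoders. Against all reads 8 of 19 isodecoders were called higher in Fb and 0 higher in ESC, against 51.9% and 2.96% of tRNA isodecoders and 4.87% of all 2977 rows tested in Fb. At an unadjusted p under 0.05, 1 isodecoder was on the ESC side there, CAG-3, which had an adjusted p of 0.0510 in edgeR.

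Further tested rows with a negative log2 fold change did not pass. tRNA-Leu-CAA-2-1 held 65.4, 5.6 and 37.8 reads in ESC and 28.8, 9.3 and 3.5 in Fb (-1.20, SE 1.11, adjusted p = 0.398, edgeR). tRNA-Ser-AGA-2-3 held 18.4, 50.1 and 11 in ESC and 11.4, 32.4 and 2.0 in Fb (-0.51, SE 1.01, adjusted p = 0.692, edgeR). tRNA-Ser-GCT-1-1, the leading GCT row of every ESC library, held 22.5, 36.2 and 31.0 in ESC and 22.6, 26.3 and 6.9 in Fb (-0.38, SE 0.56, adjusted p = 0.590, edgeR). All 3 overlapped between the groups. CAA-4-1, tested against all reads alone, held 9.4, 48.3 and 20.4 in ESC and 8.7, 6.9 and 3.6 in Fb (-1.49, SE 0.96, adjusted p = 0.501, edgeR). Over all 56 rows, 13 were higher in every Fb library and 6 in every ESC library, in tRNA RPM. Besides the 3 called rows, the 6 held CAG-1-1, with 6.0, 18.0 and 14.1 reads in ESC and 3.2, 1.0 and 1.3 in Fb. CAG-1-1 was not tested, and the rest of the 6 had less than 1 read in every library. Among the 54 rows with reads this was 24.1% and 11.1%, beside 22.9% and 13.2% of the 401 other tRNA rows with reads.

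The copy that received the reads of an anticodon differed between libraries of the same group, most of all for leucine CAG with its 10 rows. In Fb replicate 1, CAG-1-5 held 2533.2 of 2556.4 CAG reads, or 99.1%. In Fb replicate 2, CAG-2-3 held 1451.2 and CAG-1-4 held 1318.4, while CAG-1-5 had 0. In Fb replicate 3, CAG-2-1 held 2017.0, or 98.9%. The sums of isodecoders CAG-1 and CAG-2 swapped too, at 2546.2 and 9.2 reads in Fb replicate 1, 1319.4 and 1451.2 in Fb replicate 2, and 16.7 and 2017.1 in Fb replicate 3. The anticodon sum of these libraries nevertheless stayed within 349 to 397 tRNA RPM. In ESC, CAG-2-3 led in replicates 1 and 2 at 92.3% and 58.9%, and CAG-1-5 in replicate 3 at 41.3%. The edgeR test called neither CAG-1-5 (log2 fold change 4.84, SE 3.23, adjusted p = 0.249) nor CAG-2-3 (1.27, SE 2.43, adjusted p = 0.687).

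**Figure D5:**
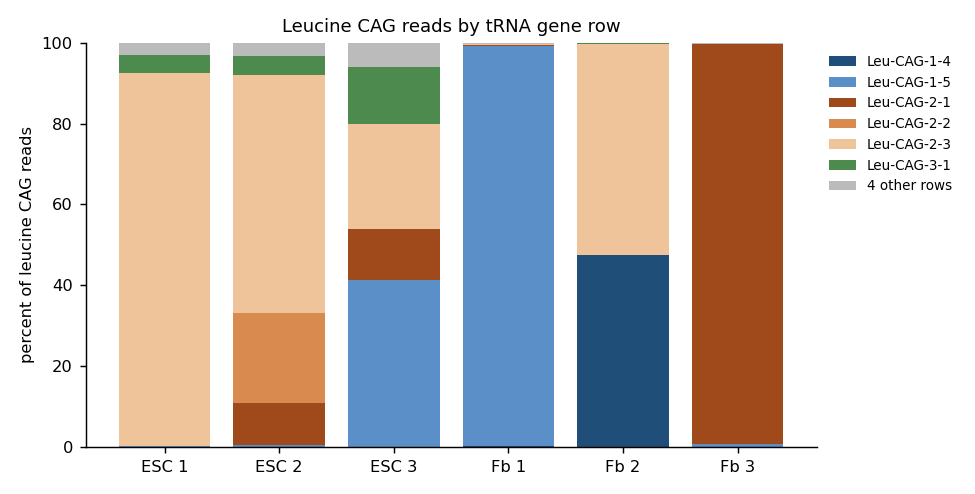
Percent of leucine CAG reads held by each tRNA gene row (colours, 6 rows named and 4 rows pooled in grey) in each library. A different row leads in each Fb library, with 99.1% for CAG-1-5 in Fb 1, 52.3% for CAG-2-3 in Fb 2 and 98.9% for CAG-2-1 in Fb 3.

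The mitochondrial serine tRNAs, encoded in mitochondrial DNA and built without the long variable arm, are listed under other names and were not members. mt-Ts1 stood at 44.5, 34.5 and 39.4 RPM in ESC and at 9.88, 10.6 and 9.40 in Fb, and mt-Ts2 at 7.98, 7.44 and 9.64 in ESC and at 4.50, 3.68 and 1.88 in Fb. Both lay higher in ESC than in Fb in all libraries, opposite to the members' serine sum on the same scale, which stood at 24.3, 27.3 and 23.3 in ESC and at 166, 150 and 174 in Fb (exact two-sided permutation p = 0.1 each, the smallest possible). The mitochondrial leucine tRNAs mt-Tl1 and mt-Tl2 had no more than 7 reads in any library.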

How the data were processed

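Small RNA libraries of ESC and Fb exosomes (3 each, grouped by title) were built from column-purified RNA with the CleanTag kit, then gel-selected by size, per the labels' protocols. FastQC, cutadapt and the build GRCm38 are named in the submitters' processing notes. Not given in the sources used here are the aligner, the counter, strand use and multi-mapping rules. Values as deposited were estimated counts per non-coding RNA, and 82.6% to 92.2% of nonzero values in a library were fractional. They were rounded for count models.

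Rows were summed by amino acid and by anticodon. edgeR 4.0.16 (R 4.3.3, quasi-likelihood, filterByExpr with minimum count 10 and minimum total 15, group as the only term) was fitted on whole tables, with the total of all assigned or of all tRNA reads as library size and no further factor. Benjamini-Hochberg adjusted p under 0.05 was called. Positive log2 fold changes mean higher in Fb. Shares were compared by exact permutation (scipy 1.17.1). The alternatives were TMM factors, library sizes without glycine and glutamate tRNA, DESeq2 1.42.0, limma-trend 3.58.1 (prior count 2), no count filter, unrounded counts, a replicate block and leaving out each library. After seeing the data, isodecoder sums and the sum of serine AGA and TGA were added, and shares within an amino acid were counted only for anticodons that edgeR tested. The edgeR fits of rows against all reads and of anticodon sums against tRNA reads were also run on simulated counts. The other fits were not. Members, lists and the rule for named rows were chosen with earlier results of these data known. That rule took every amino acid and anticodon, the leading row of each anticodon per group and the 5 called rows with the largest change in each direction. It also took every row on the ESC side among those tested against tRNA reads, and the selenocysteine row. GCT-4-1, CAA-1-1, CAA-4-1, CAG-1-1, CAG-1-4, CAG-2-1, AAG-1-2 and TAG-4-1 fall outside it and were chosen after their values were seen. Reads carry no molecular identifiers, so 95% intervals (Clopper-Pearson) and the limit of 3 reads cover counting error only. Near-identical tRNA genes share reads, so values of single rows are uncertain.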

Additional observations from a re-analysis of the deposited data

How the results depend on the processing

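Scaling decided the direction against tRNA reads. With TMM factors the log2 fold change was 0.35 for leucine, -0.39 for serine and -2.37 for selenocysteine, with DESeq2 it was 0.53, -0.15 and -2.28, and without glycine and glutamate reads in the library size -1.35, -2.11 and -3.97. The median of all 22 amino acids moved from 3.11 to 0.03, 0.16 and -1.58. Without glycine and glutamate reads the ratios of Fb to ESC were 0.320 for the class, 0.393 for leucine, 0.232 for serine and 0.0637 for selenocysteine, and by anticodon 0.210 for AAG, 0.0794 for CAA, 0.319 for CAG, 0.0801 for TAA, 0.217 for AGA, 0.152 for CGA and 0.151 for GCT, against 3.79 for TAG without overlap of the groups and 2.50 for TGA with overlap.

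Leucine and serine anticodons that turned to the ESC side (log2 fold change) with TMM were AAG at -0.15, CAA at -2.30, AGA at -0.47, CGA at -1.42 and GCT at -0.94. With DESeq2 they were CAA at -1.59, CGA at -0.73 and GCT at -0.37. Without glycine and glutamate reads they were AAG at -2.25, CAA at -3.65, CAG at -1.65, AGA at -2.21, CGA at -2.71 and GCT at -2.72. Of the 22 rows tested, 5 turned with TMM, CAA-1-1, CAA-3-1, CAG-2-3, CGA-2-1 and the selenocysteine row (-2.04, -0.43, -1.57, -0.16, -1.66). With DESeq2 7 turned, these 5 (-3.08, -1.53, -2.59, -1.15, -2.69), AAG-1-2 (-0.44) and GCT-4-1 (-0.61). Without glycine and glutamate reads 11 turned, the same 7 in that order (-3.96, -2.74, -3.34, -2.33, -3.97, -1.76, -2.46), AAG-3-1 (-0.86), CAG-1-5 (-0.14), AGA-2-1 (-0.92) and GCT-3-1 (-0.0057). CAG-2-3 also turned with limma-trend (-2.77).

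Against tRNA reads, 7 anticodons were called in Fb and 0 in ESC. These became 2 and 3 with TMM, 1 and 7 without glycine and glutamate reads, and 1 and 2 with DESeq2. The median log2 fold change of all tRNA anticodons tested moved from 2.54 to -0.47, -2.205 and 0.15. Rows called, 9 in Fb and 3 in ESC of 22 tested, became 3 and 5 of 22 with TMM. They became 1 and 14 of 27 without glycine and glutamate reads and 2 and 9 of 22 with DESeq2. Without a count filter 5 of 48 were called in Fb. The median of all tRNA rows tested moved from 3.33 to 0.90, -3.73, -0.22 and 0.49 in these settings. Calls over all tRNA rows in these settings are not given here. Isodecoder sums gave 1 ESC call against tRNA reads and 0 against all reads. In the fits over all rows, the 4 anticodons called in Fb against all reads became 7 with TMM and 9 with DESeq2. TMM rescales the total of all reads, and DESeq2 uses size factors of its own in place of it. The median log2 fold change of all 2889 rows tested moved from -0.83 to -0.07 and -0.02 there. The 7 rows called in Fb became 12 with DESeq2. Without a filter, which let 48 member rows be tested in place of 23, they became 11, and ESC rows rose from 2 to 4. Serine against all reads lost its edgeR call without glycine and glutamate reads (2.20, adjusted p = 0.0654) and without a filter (2.71, adjusted p = 0.0560). Selenocysteine gained a call with DESeq2 over all rows (3.00, adjusted p = 0.00266), on its own size factors and not relative to the total of all reads.

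Leaving out a library gave log2 fold changes against tRNA reads of 3.14 to 3.57 for leucine, 2.56 to 2.68 for serine and 0.45 to 1.02 for selenocysteine, and against all reads of 3.22 to 3.66, 2.66 to 2.78 and 0.52 to 1.08. Against tRNA reads 6 to 9 anticodons and 5 to 10 rows were called in Fb and 2 to 4 rows in ESC, and against all reads 2 to 9 anticodons and 3 to 14 rows in Fb and 1 to 5 rows in ESC. Rows whose sign turned were CAA-1-1 (-0.26 to 3.08), CAG-1-5 (-1.79 to 9.26), CAG-2-1 (-3.90 to 5.96), CAG-2-3 (-6.93 to 1.85) and AGA-2-3 (-1.68 to 0.24), and the AGA share of serine ranged from -11.3 to 8.06 percentage points. The deviations of same-numbered ESC and Fb libraries had r = -0.003, 0.082 and -0.052 over 2915 rows. Differently numbered ones had r from -0.079 to 0.075. Values this alike cannot tell whether the numbers pair the libraries. With a replicate block, serine against all reads had an adjusted p of 0.0677 at a log2 fold change of 2.71, 1 row was called in ESC against tRNA reads, and CAG-1-5 (-0.11) and CAG-2-3 (-4.64) turned. The cause of these changes was not tested. Of the 56 rows, 16 never reached 3 reads.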
